A study of Homo sapiens with 6 samples.

Results

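Interleukins are secreted proteins by which cells signal to one another, and most act through receptors made of several chains that are shared between ligands. They were measured here in cells of RKO, a human colon cancer line that has long been in culture. The starting cells, RKO C2, form a clonal population, and RKO C2 F3 cells descend from it through fluorescence-activated sorting for low u-PAR, the receptor of the protease urokinase. The study asked which glycosylation enzyme is deficient in cells whose u-PAR does not mature fully, so interleukins were not its stated target. The labels give no treatment for either population, are not uniform on whether F3 is clonal, and do not tell if the 3 arrays of each population came from separate cultures. The p-values therefore measure only the spread between these arrays, and part of that may be technical.

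The interleukin genes were chosen by name. Every probe set (a group of array probes read as 1 value) whose RefSeq accession belongs to a gene with a symbol of IL followed by a digit was kept. This gave 42 of 1259 probe sets. They stand for 39 of the 927 genes named in the table, and for 39 of the 85 protein-coding RefSeq genes that fit the same name rule. Of the 39 genes, 23 encode ligands, counting the receptor antagonist IL36RN, and 16 encode receptor chains, which have 19 probe sets. IL5RA has 3 probe sets, IL12RB1 has 2 and the other genes have 1 each. Values are log2 expression from RMA, a method that corrects background, makes the distributions of the arrays alike and summarises probes, and 1 unit is a doubling. Per array, the median of all probe sets was 5.48 to 5.51, and the correlation of 2 arrays over probe sets was at least 0.9981.

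As background, ligands of the IL1 family such as IL1A and IL1B start inflammatory signalling, and IL1R2 is a decoy receptor that takes up ligand without signalling. IL2RG is the common gamma chain shared by the receptors for IL2, IL4, IL7 and IL9, while IL6ST, also called gp130, is the signalling chain shared by IL6 and related cytokines. IL17RA is a shared receptor chain of the IL17 family, and IL4R serves IL4 and IL13.

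No interleukin probe set passed the test between the populations. In limma, adjusted by Benjamini-Hochberg over the table of 1259 probe sets, 0 of 42 had an adjusted p under 0.05, and 0 of 42 had an unadjusted p under 0.05. Over the whole table the shares were 0.0794% (1 probe set, of the GPI anchor gene PIGB) and 5.4%. With the replicate number as a block in the fit, 0 of 42 and 0.159% of all probe sets (2, of PIGB and S100A10) had an adjusted p under 0.05. The changes of the 42, F3 minus C2 on the log2 scale, ran from -0.12 for IL6ST to 0.13 for IL19, and the smallest adjusted p among them was 0.97. Their median change was 0.016, beside -0.0064 for all probe sets, and their median absolute change was 0.051, beside 0.047. Positive changes numbered 24 and negative ones 18. The 95% intervals of all 42, each for its own probe set, lay between -0.30 and 0.34, so a change of more than 1.26-fold either way was outside every interval. The RMA summary shrinks changes of dim probe sets, and the intervals do not allow for that.

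**Figure D1:**
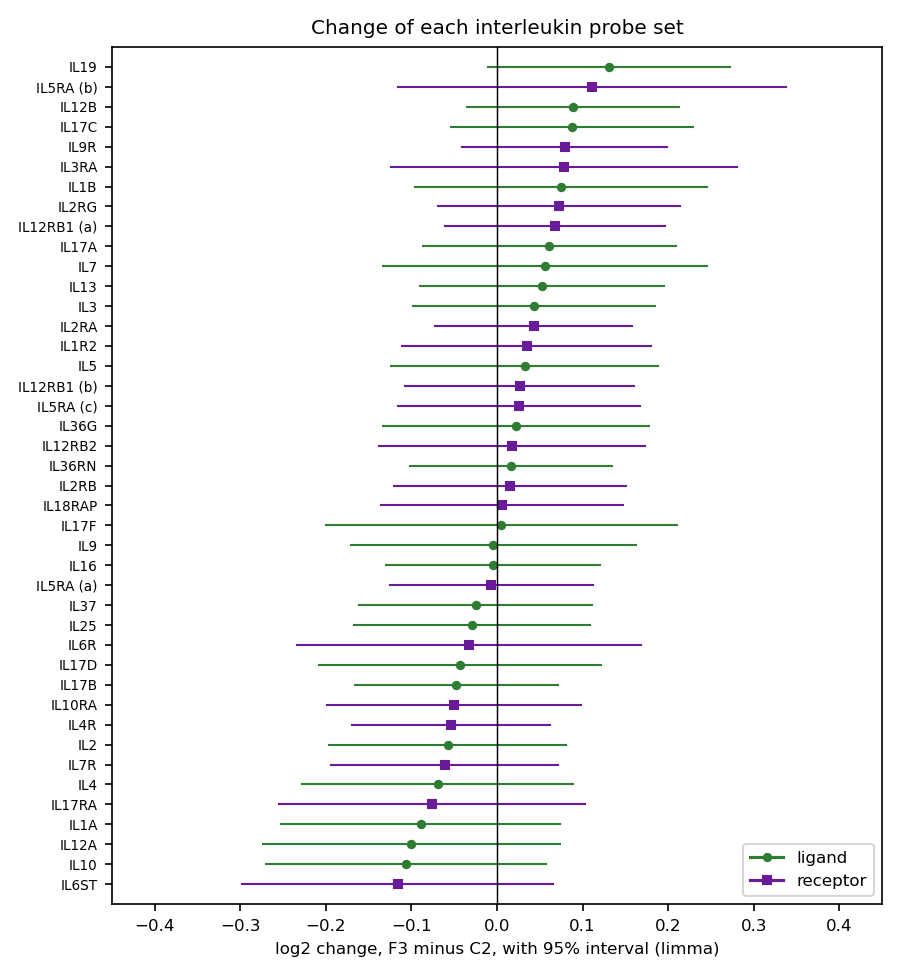
Log2 change, F3 minus C2 (horizontal axis), of each of the 42 interleukin probe sets (rows) with its 95% interval from limma; circles are ligands and squares receptor chains. Letters in brackets order the probe sets of 1 gene from brightest to dimmest, and every interval crosses 0.

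The interleukin probe sets lay in the dim part of the table. Their mean over the 6 arrays ran from 2.47 for IL2 to 6.95 for IL4R, with a median of 3.94, while the means of all probe sets had a median of 5.50 and an upper quartile of 7.77. Of the 42, 34 lay below the median of the table and 8 above it. A level under 4 was found for 22 of them, one from 4 to 6 for 14 and one of 6 or more for 6. The deposited table has no detection call, and brightness also depends on the probes, so these levels do not rank the amounts of the mRNAs and a dim probe set cannot be called absent. In RNA from whole cultures, fewer cells with a transcript and less of it per cell cannot be told apart.

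**Figure D2:**
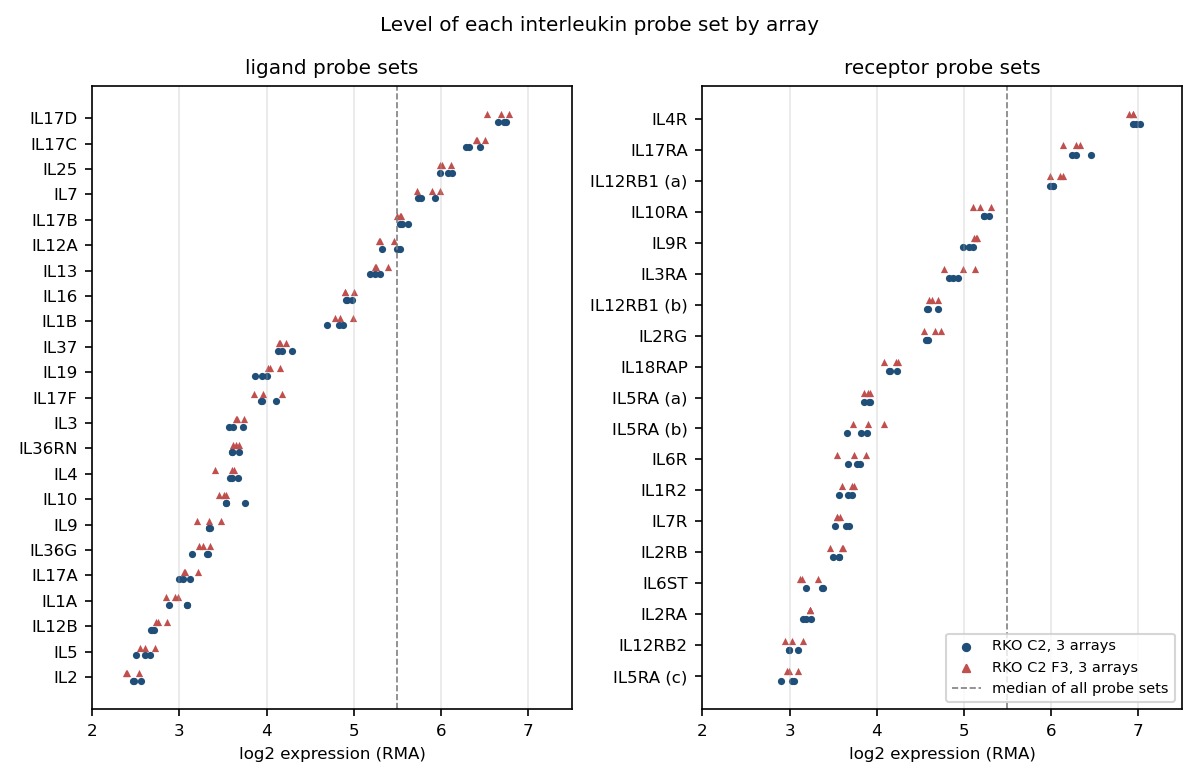
Log2 expression (horizontal axis) of every interleukin probe set (rows) on each of the 3 RKO C2 arrays (circles) and 3 RKO C2 F3 arrays (triangles), for ligands (left) and receptor chains (right); the dashed line is the median of all probe sets. The 2 populations are drawn slightly apart in each row, and their ranges overlap in every row except those of IL19, IL12B and IL9R.

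The brightest member was the receptor chain IL4R. It read 6.97, 7.02 and 6.94 in C2 and 6.89, 6.94 and 6.93 in F3, which is -0.054 in log2 units (SE 0.051, limma adjusted p = 0.97). The populations met at their edges, and the whole span of the 6 arrays was small. IL17RA came next among the receptors, with 6.45, 6.28 and 6.24 in C2 and 6.33, 6.13 and 6.29 in F3. C2 replicate 1 was highest and F3 replicate 2 lowest, while the other F3 arrays lay just above the other C2 arrays, and the change of -0.076 had an SE of 0.078.

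Among the ligands, the brightest probe sets were 3 of the IL17 family. IL17D read 6.72, 6.75 and 6.66 in C2 and 6.78, 6.52 and 6.69 in F3. Both the highest and the lowest of these were F3 arrays, and the change was -0.044 (SE 0.072). IL17C, which epithelial cells can secrete, read 6.45, 6.29 and 6.33 in C2 and 6.40, 6.51 and 6.42 in F3. C2 replicates 2 and 3 lay below all F3 arrays and C2 replicate 1 lay among them, for a change of 0.088 (SE 0.062, 95% interval -0.05 to 0.23). IL25, also named IL17E, read 6.13, 5.99 and 6.08 in C2 and 6.01, 6.11 and 5.99 in F3, over nearly the same range and with a change of -0.029.

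The remaining members of the IL17 family were not all bright. IL17B had a mean level of 5.55 and a change of -0.048, IL17F a mean level of 3.995 and a change of 0.0049, and IL17A, the ligand best known from T helper cells, a mean level of 3.08 and a change of 0.061. Of the 7 IL17 family probe sets, 4 had a level of 6 or more, beside 6 of all 42 interleukin probe sets and 545 of all 1259 probe sets. Changes in the family were positive for 3 and negative for 4.

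In 3 of the 42 probe sets the arrays of one population lay entirely on one side of the other, all 3 with F3 higher. Over all probe sets 10.3% did so in either direction, 3.81% with F3 higher and 6.51% with F3 lower. For the interleukins, 3 of 42 is 7.14%, below the 10.3% for both directions together and above the 3.81% with F3 higher. Neither difference was tested. The 3 were IL19, IL12B and IL9R.

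IL19, a ligand of the IL10 family, had the smallest p of all members. It read 4.002, 3.867 and 3.950 in C2 and 4.154, 4.021 and 4.036 in F3, or 3.94 ± 0.07 (SD, n = 3) against 4.07 ± 0.07 (SD, n = 3). The lowest F3 array lay just above the highest C2 array. The log2 change was 0.13, or 1.09-fold (SE 0.06, 95% interval -0.01 to 0.27), with an unadjusted limma p of 0.065 and an adjusted p of 0.97. Arrays with the same replicate number differed by 0.15, 0.15 and 0.09. When the fit was blocked by replicate number, the unadjusted limma p was 0.034, which made IL19 the 1 member of 42 under 0.05 beside 8.02% of all probe sets, and the adjusted p was 0.55.

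IL12B encodes the p40 subunit that IL12 shares with IL23. It was among the dimmest members, at 2.69, 2.71 and 2.68 in C2 and 2.76, 2.73 and 2.85 in F3. The gap between the populations was narrow and F3 replicate 3 stood highest, for a change of 0.089 (SE 0.054, limma adjusted p = 0.97). IL9R, the specific chain of the IL9 receptor, read 5.06, 5.10 and 4.99 in C2 and 5.15, 5.14 and 5.11 in F3. Again the lowest F3 array was only just above the highest C2 array, and the change was 0.079 (SE 0.052, limma adjusted p = 0.97).

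**Figure D3:**
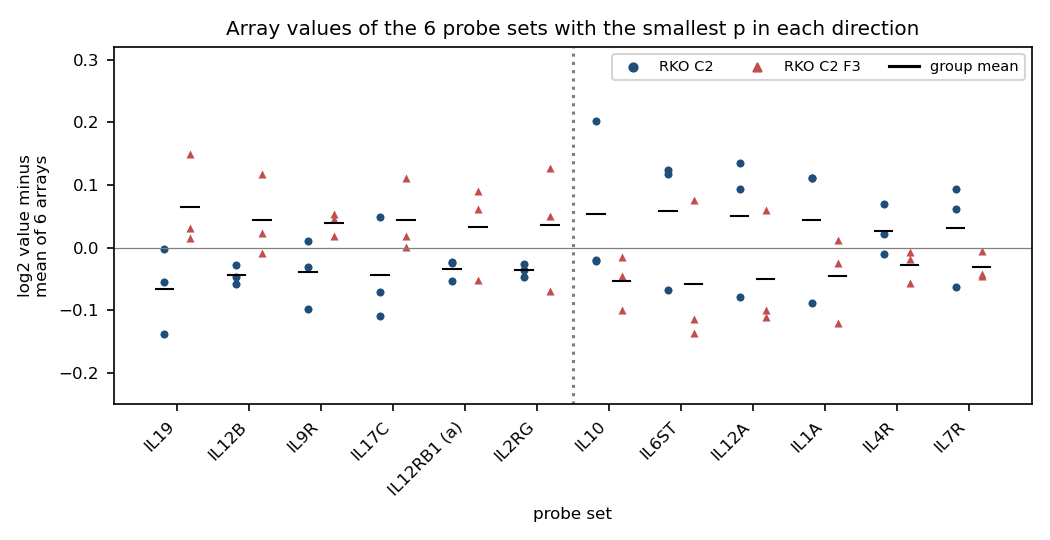
Log2 value minus the mean of the 6 arrays (vertical axis) for the 6 interleukin probe sets with the smallest limma p in each direction, positive changes left of the dotted line and negative ones right of it; circles are RKO C2 arrays, triangles RKO C2 F3 arrays and bars the mean of 3 arrays. Only IL19, IL12B and IL9R among these 12 have populations that do not overlap, and (a) marks the brighter IL12RB1 probe set.

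Promoter sequences of these 3 genes and of IL4R, the brightest member, are shown because these members stand at the edge of the values above. They are the RefSeq windows of GRCh38.p14 from 250 bases before to 50 bases after a start, 5′ to 3′ on the strand of the gene. Capitals mark letters that match any of 4 motifs searched on both strands. These were the TATA box (TATAAA), the GAS element bound by STAT factors (TTCNNNGAA), a wide AP-1 pattern (TGANTCA) and the NF-kappaB consensus. N stands for any base, so the AP-1 pattern was looser than an exact site. The table has 2 start windows for IL19.
IL19, first window, chr1:206770523-206770822, plus strand: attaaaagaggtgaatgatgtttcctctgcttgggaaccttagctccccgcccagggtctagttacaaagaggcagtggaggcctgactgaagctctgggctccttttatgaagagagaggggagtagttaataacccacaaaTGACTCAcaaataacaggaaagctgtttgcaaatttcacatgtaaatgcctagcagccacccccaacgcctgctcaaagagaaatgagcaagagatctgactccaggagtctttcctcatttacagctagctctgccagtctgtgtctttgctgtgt
IL19, second window, chr1:206834099-206834398, plus strand: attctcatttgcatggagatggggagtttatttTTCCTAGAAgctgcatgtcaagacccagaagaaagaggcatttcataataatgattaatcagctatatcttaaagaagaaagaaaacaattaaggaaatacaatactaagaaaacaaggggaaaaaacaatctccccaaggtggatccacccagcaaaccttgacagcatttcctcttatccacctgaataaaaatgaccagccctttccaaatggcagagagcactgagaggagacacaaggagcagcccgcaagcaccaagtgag
IL12B, chr5:159330438-159330737, minus strand: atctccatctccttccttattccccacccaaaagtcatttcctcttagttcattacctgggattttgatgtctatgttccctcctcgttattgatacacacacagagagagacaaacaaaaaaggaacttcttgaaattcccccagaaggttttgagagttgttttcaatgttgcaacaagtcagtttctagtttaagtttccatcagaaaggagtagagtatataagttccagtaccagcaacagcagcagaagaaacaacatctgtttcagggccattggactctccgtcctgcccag
IL9R, chrX:155997446-155997745, plus strand: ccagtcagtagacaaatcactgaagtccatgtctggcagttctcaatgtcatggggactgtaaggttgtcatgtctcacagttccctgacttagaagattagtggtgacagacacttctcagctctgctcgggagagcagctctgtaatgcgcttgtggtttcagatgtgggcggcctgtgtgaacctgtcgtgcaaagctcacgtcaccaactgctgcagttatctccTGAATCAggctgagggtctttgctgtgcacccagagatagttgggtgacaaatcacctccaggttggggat
IL4R, chr16:27313724-27314023, plus strand: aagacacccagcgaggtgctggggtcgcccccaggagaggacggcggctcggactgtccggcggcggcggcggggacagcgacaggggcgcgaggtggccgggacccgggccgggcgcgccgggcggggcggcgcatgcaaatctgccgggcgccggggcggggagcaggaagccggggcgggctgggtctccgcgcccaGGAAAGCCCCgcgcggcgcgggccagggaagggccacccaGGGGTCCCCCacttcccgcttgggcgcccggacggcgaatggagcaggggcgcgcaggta

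These windows show no motif common to the 3 genes whose populations did not overlap. IL19 matches the wide AP-1 pattern in its first window (TGACTCA) and has a GAS match in its second. IL9R matches the wide AP-1 pattern only with A as the open base (TGAATCA). IL12B has none of the 4 and IL4R has 2 NF-kappaB matches. Promoter windows were matched for 33 of the 39 genes, 49 windows in all, as a gene can have several. A TATA box was found in 22.4% of these windows and in 11.6% of all 34796 distinct windows. A match to the wide AP-1 pattern was found in 20.4% and 7.73%, a GAS match in 12.2% and 7.67%, and an NF-kappaB match in 10.2% and 5.91%. Windows of the same gene count separately in these shares, and the differences were not tested. By gene, the TATA box was found for 11, among them IL1A, IL10, IL13, IL17A, IL17F and IL7R. A match describes letters only, and no promoter was measured.

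The negative changes were led by IL6ST and IL10. IL6ST, the shared chain of the IL6 receptor group, read 3.37, 3.38 and 3.19 in C2 and 3.14, 3.12 and 3.33 in F3. C2 replicate 3 and F3 replicate 3 went against the other arrays of their populations, so the groups overlapped, and the change of -0.12 had an SE of 0.08 and a limma adjusted p of 0.97. IL6R, the specific chain of the same receptor, had a mean level of 3.74 and a change of -0.033 (95% interval -0.23 to 0.17). Both chains were thus dim on these arrays and neither passed the test.

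IL10, a ligand that restrains inflammation, read 3.53, 3.75 and 3.53 in C2 and 3.51, 3.54 and 3.45 in F3. C2 replicate 2 alone stood clear of the rest, and without it the change of -0.11 (SE 0.07) became -0.033. Its receptor chain IL10RA had a mean level of 5.22 and a change of -0.050 (SE 0.065). IL10 lies next to IL19 among the protein-coding genes of the RefSeq annotation, and the signs of their changes were opposite.

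IL12A, which encodes the p35 subunit that pairs with IL12B, read 5.49, 5.53 and 5.32 in C2 and 5.30, 5.46 and 5.29 in F3. C2 replicates 1 and 2 were highest, C2 replicate 3 was among the F3 arrays, and the change was -0.10 (SE 0.08, limma adjusted p = 0.97). The receptor chain IL12RB1 was read by a brighter probe set and a dimmer one. On the brighter it read 6.02, 6.02 and 5.99 in C2 and 6.13, 6.10 and 5.99 in F3, a change of 0.067 (SE 0.056), with F3 replicate 3 at the level of C2. The dimmer one, at a mean of 4.63, had a change of 0.026, and the partner chain IL12RB2, at 3.03, had one of 0.017. Subunits of the IL12 pair and of its receptor therefore gave small changes of both signs.

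In the IL1 family, IL1A read 3.08, 2.88 and 3.08 in C2 and 2.85, 2.95 and 2.98 in F3. C2 replicate 2 lay with the F3 arrays, and the change was -0.089 (SE 0.071, limma adjusted p = 0.97). IL1B had a brighter probe set, at a mean of 4.84, and a change of 0.074 (SE 0.075). IL36G, IL36RN and IL37 had changes of 0.022, 0.016 and -0.025 at mean levels of 3.27, 3.64 and 4.19. Of the receptor chains, the decoy IL1R2 was at 3.67 with a change of 0.035, and IL18RAP, the accessory chain for IL18, was at 4.18 with one of 0.0060. None of the 7 probe sets of the family reached the median level of the table.

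The common gamma chain group had 10 probe sets, 5 with a positive and 5 with a negative change. IL2RG, the shared chain, read 4.57, 4.58 and 4.59 in C2 and 4.54, 4.66 and 4.74 in F3. The C2 arrays were almost identical while the F3 arrays spread to both sides of them, and the change was 0.072 (SE 0.062, limma adjusted p = 0.97). IL7R read 3.68, 3.52 and 3.64 in C2 and 3.54, 3.58 and 3.54 in F3. C2 replicate 2 was the lowest array of all, and the change was -0.061 (SE 0.058). IL2RA and IL2RB, the other chains of the IL2 receptor, were at 3.22 and 3.55 with changes of 0.043 and 0.015.

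The ligands of this group were IL2, IL4, IL7 and IL9. IL2, a T cell growth factor, was the dimmest member at 2.47 and had a change of -0.058 (SE 0.060). IL4 was at 3.58 with a change of -0.069, and IL9 at 3.34 with one of -0.0042. IL7, which epithelial and stromal cells make, was brighter, at a mean of 5.84, and had a change of 0.056 (SE 0.083). IL13, which signals through IL4R, was at 5.27 with a change of 0.052, and IL16, a chemoattractant for T cells, at 4.94 with one of -0.0046.

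IL3 and IL5 signal through a shared beta chain, each with its own alpha chain. IL3 was at 3.66 and IL5 at 2.61, with changes of 0.043 and 0.032, and the chain IL3RA was at 4.92 with a change of 0.078 (SE 0.088). The 3 probe sets of IL5RA differed among themselves. The first, whose identifier carries the accession NM_000564.2, read 3.66, 3.89 and 3.82 in C2 and 3.90, 4.09 and 3.72 in F3. Its change of 0.11 had the largest SE of any member, 0.10, and F3 replicate 3 lay among the C2 arrays.

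The second IL5RA probe set, with NM_175725.1 in its identifier, read 3.93, 3.85 and 3.91 in C2 and 3.92, 3.90 and 3.85 in F3, with full overlap and a change of -0.0065 (SE 0.052). The third, with NM_175727.1, read 3.03, 2.90 and 3.05 in C2 and 2.97, 3.09 and 2.99 in F3, for a change of 0.026 (SE 0.062). The 3 intervals overlapped, and whether the probe sets read different transcripts of the gene was not tested.

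**Figure D4:**
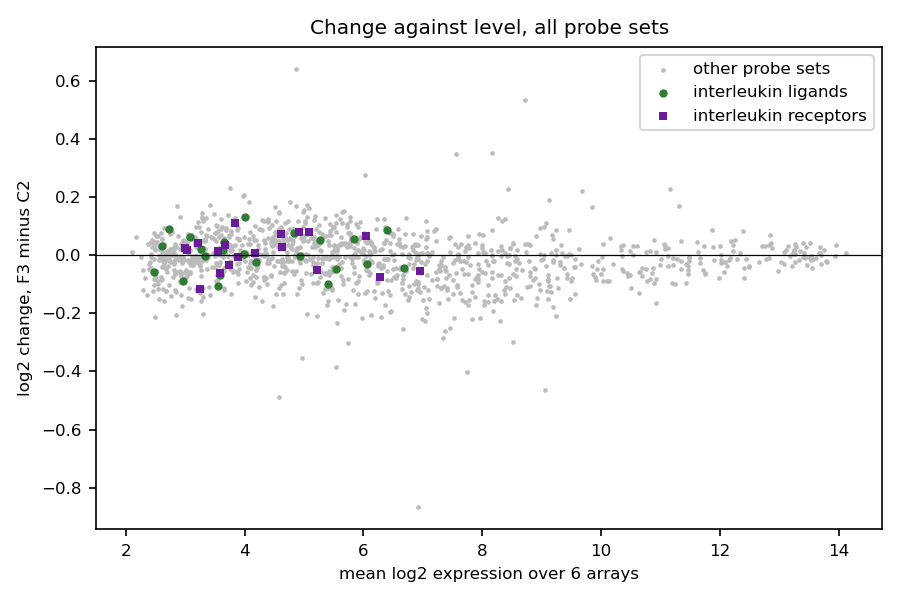
Log2 change, F3 minus C2 (vertical axis), against the mean log2 expression over 6 arrays (horizontal axis) for all 1259 probe sets; grey points are other probe sets, circles interleukin ligands and squares interleukin receptor chains. The interleukins fill the dim left side, up to 6.95, and stay between -0.12 and 0.13 on the vertical axis.

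Ligands and receptor chains gave similar ranges. The 23 ligand probe sets had a median level of 3.995 and changes from -0.11 to 0.13, with 12 positive and 11 negative. The 19 receptor probe sets had a median level of 3.89 and changes from -0.12 to 0.11, with 12 positive and 7 negative. The median SD within a population was 0.071 for the interleukins and 0.073 for all probe sets.

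The highest value fell on C2 replicates 1, 2 and 3 for 8, 8 and 0 of the 42 probe sets and on F3 replicates 1, 2 and 3 for 13, 9 and 4. These are 19.05%, 19.05% and 0% for C2 and 30.95%, 21.43% and 9.52% for F3. Over all probe sets the same arrays were highest in 13.66%, 26.13% and 13.03% for C2 and 13.98%, 18.19% and 15.01% for F3. The lowest value fell on the C2 replicates for 5, 7 and 8 of the 42 and on the F3 replicates for 6, 6 and 10. These are 11.91%, 16.67% and 19.05% for C2 and 14.29%, 14.29% and 23.81% for F3. Over all probe sets the same arrays were lowest in 15.97%, 12.39% and 15.25% for C2 and 25.97%, 12.63% and 17.79% for F3. Differences between the 42 and all probe sets in these shares were not tested. Arrays that share a replicate number deviated together from the means of their populations over all probe sets (r = 0.52, 0.18 and 0.26 for numbers 1, 2 and 3). Over the 42 interleukin probe sets alone the same r was 0.023, 0.066 and -0.14. The 3 paired differences had the same sign for 8 of the 42, beside 29.9% of all probe sets.

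Other cytokine genes were read from lists of related names. The first list held 27 cytokines and receptors of receptor class I with names outside the rule. Not all interleukins here belong to that class. Of the 27, 15 were measured by 21 probe sets. In limma 0 rose and 0 fell, with 0 at an unadjusted p under 0.05. LIF, a ligand that signals through IL6ST, was bright at 10.1 with a change of -0.088, while its chain LIFR was at 2.50 and the related chain OSMR at 2.48. The smallest p in this list belonged to OSM (-0.11) and to 1 of 2 EPOR probe sets (0.15), both with a limma adjusted p of 0.97. Of 24 genes of interferons, the TNF family and their receptors, 7 were measured by 8 probe sets, and 0 rose and 0 fell in limma, again with 0 at an unadjusted p under 0.05. IFNGR2, a chain of the interferon gamma receptor, was at 10.0 with a change of -0.089, and IFNG at 3.21 with one of 0.11. CXCL8, once named IL8, and its receptors CXCR1 and CXCR2 do not match the name rule, and 0 of their 4 probe sets passed, with changes from -0.029 to 0.049. No gene of the lists of JAK, STAT and SOCS proteins (23) or of IL1 and IL17 signalling (16) was matched to a probe set.

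Markers of other cell types were read in both populations. For 13 leukocyte genes of 28 listed, 15 probe sets had mean levels from 2.49 to 5.78. Summed over the 15, the log2 values lay between 58.2 and 58.4 in C2 and between 58.0 and 59.0 in F3. For 8 fibroblast and endothelial genes of 16, the sums lay between 28.2 and 28.6 in C2 and between 27.8 and 28.2 in F3. A sum of log2 values is not an amount of RNA. Changes were negative for 7 and positive for 1 of these 8 probe sets, and negative for 7 and positive for 8 of the 15 leukocyte ones. None of these probe sets passed the limma test. Of the 15, 3 had an unadjusted p under 0.05, with changes of both signs (CD72 0.23, SIGLEC5 0.17 and KLRC1 -0.21), and so had 1 of the 8 (ICAM2, -0.20), beside 5.4% of all probe sets. Their part in the interleukin values was not tested. Of 12 epithelial genes, 4 were measured. SDC1 was at 9.51 and the 3 MUC1 probe sets between 6.86 and 7.11, while LGALS4 and MUC2 were at 4.71 and 5.13. The epithelial genes EPCAM, KRT8 and KRT18 were on the list but were matched to no probe set.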

How the data were processed

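RNA was isolated with Trizol and labelled with biotin as cRNA by Affymetrix's protocol, per the labels. The deposited table holds log2 values, 1 per probe set and array, made by RMA per the submitters' processing notes. Neither the RMA version nor the definition of the probe sets is given in the sources used here. Identifiers of 8 interleukin probe sets end in _s_at, among them those of IL9R, IL6ST and IL17RA. Those of 3 end in _a_at, among them that of IL19. Whether each probe set reads only its named gene was not tested. Of 1259 probe sets, 1043 matched 1 symbol each through their RefSeq accession without version in the RefSeq gene table of GRCh38.p14. The other 216, of which only 26 carry a RefSeq accession, stayed unnamed. They were kept in the tests and in every share of all probe sets, so those shares do not cover named genes alone. F3 (3 arrays) was compared with C2 (3 arrays) in limma 3.58.1 (R 4.3.3), two-sided, adjusted by Benjamini-Hochberg over the whole table, with 0.05 as threshold. The script was checked on simulated data. At most 0.48% of values were identical between 2 arrays.

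Both populations use the replicate numbers 1 to 3, and same-numbered arrays share a date-like mark in their titles. These numbers were read as pairing the arrays, since same-numbered arrays deviated together (r = 0.52, 0.18 and 0.26 over all probe sets); the main fit has no block. Values of all arrays are given for the 6 members with the smallest p in each direction, the 6 brightest, and genes whose probe sets differ in sign by over 0.1. From each related list, the 1 or 2 genes of smallest p are named; LIF, LIFR, OSMR, the epithelial genes and the 4 marker genes of unadjusted p under 0.05 were chosen after their values were seen. Members and lists were chosen with earlier results of these data known.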

Additional observations from a re-analysis of the deposited data

How the results depend on the processing

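No interleukin probe set passed an adjusted p of 0.05 in limma under any of the 16 alternatives, where the smallest adjusted p was 0.55 (IL19, replicate block), and the block changed no call of a member. Over all probe sets 1 was called, 2 with the replicate block (PIGB and S100A10), 2 at an adjusted p under 0.10 and 0 to 2 with 1 array left out. Members without overlap numbered 3, 1 after repeated quantile normalization (2.38%, beside 8.58% of all probe sets) and 4 to 12 with 1 array left out, which by itself makes overlap rarer. Without C2 replicates 1, 2 and 3 in turn the share was 9.52%, 28.6% and 14.3% of members beside 20.9%, 19.2% and 19.8% of all probe sets, and without F3 replicates 1, 2 and 3 it was 16.7%, 19.0% and 16.7% beside 20.3%, 17.6% and 21.0%. The median change, 0.016, ran from -0.0073 to 0.027 with 1 array left out.

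The sign turned for 18 of 42 member probe sets, none with a change beyond 0.078, and the cause was not tested. After centring on the array medians IL16 was at 0.011, IL9 at 0.011 and IL5RA (NM_175725.1) at 0.0088; with quantile normalization IL17F at -0.00057, IL2RB at -0.016 and IL36RN at -0.000090; with array weights IL12RB2 at -0.0066 and IL16 at 0.0042; with the mean of its probe sets IL5RA at 0.043. With 1 array left out in turn the ranges were -0.041 to 0.065 for IL12RB2, -0.039 to 0.017 for IL16, -0.10 to 0.026 for IL17D, -0.085 to 0.076 for IL17F, -0.025 to 0.055 for IL18RAP, -0.0095 to 0.075 for IL1R2, -0.067 to 0.00046 for IL25, -0.012 to 0.061 for IL2RB, -0.037 to 0.055 for IL36G, -0.059 to 0.020 for IL37, -0.0032 to 0.17 for IL3RA, -0.016 to 0.073 for IL5, -0.030 to 0.013 for IL5RA (NM_175725.1), -0.019 to 0.053 for IL5RA (NM_175727.1), -0.11 to 0.057 for IL6R, -0.0042 to 0.13 for IL7 and -0.074 to 0.065 for IL9. The number of arrays limits the precision.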
